A study of Mus musculus with 18 samples.

Results

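The transcripts described here are those that the deposited table marks as nonsense-mediated decay transcripts, a biotype that annotation gives to spliced RNAs whose reading frame ends early. They were found by the biotype field of the row names, leaving out genes whose names begin with Rpl, Rps or Srsf. The table holds 5375 rows of this biotype, of which 31 rows from 22 genes were left out, so 5344 transcripts of 3422 genes remained, of 115125 transcripts and 47643 genes in all. Of these genes, 2242 had 1 such transcript and 1180 had more, up to 13 in Tmem234, and in 50 genes no other kind of transcript was listed. The RNA came from 5G6GR mouse embryonic stem cells grown without feeders in medium with leukemia inhibitory factor, puromycin and blasticidin, and all 18 libraries began from purified total RNA of these cells. RT-RamDA, a reverse transcription method that amplifies cDNA by strand displacement, was run on 10 pg of this RNA with 5 primer sets: random hexamers (N6), not-so-random primers designed to avoid ribosomal RNA (NSR), oligo-dT (dT), and each random set mixed with oligo-dT (N6dT and NSRdT). The sixth group, called bulk here, used 200 ng of RNA, depletion of rRNA with a KAPA RiboErase kit and N6 priming. Each group had 3 libraries. RT-RamDA libraries had 17 cycles of PCR and bulk libraries had 7, so input, kit, depletion and amplification cannot be told apart in any comparison with bulk. The labels do not say that libraries came from separate cultures, so p-values measure the spread between libraries only.

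Nonsense-mediated decay is the cytoplasmic pathway that degrades mRNAs on which a ribosome stops well upstream of an exon junction. The exon junction complex left by splicing marks that junction, and UPF1, phosphorylated by the kinase SMG1, recruits the nucleases and decapping factors. Genes for splicing factors are known for using the pathway on themselves: they splice in a poison exon, or skip a coding exon, so that part of their own pre-mRNA is turned into RNA that is degraded.

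GENCODE vM21 (GRCm38), used here for structure, holds 5113 of the transcripts, or 95.7%. In 5084 of the 5112 with an annotated stop codon, the stop lay 50 bases or more upstream of the last exon junction, the distance usually taken to trigger decay, and in 28 it did not. The same position was found in 1.084% of 8854 protein-coding transcripts of the same genes. The biotype is given for an early end of the reading frame, so this contrast describes the label and tests nothing. The median stop stood 330 bases before the last junction, against 120 bases after it in the protein-coding transcripts, for which the median of the same distance was -120. The transcripts were also shorter, with a median of 1227 bases and 7 exons against 2522 bases and 10 exons, and a median coding length of 303 against 1395 bases. What sets them apart in sequence is often small. In 2086 of the 5113 no exonic base lay outside the exons of protein-coding transcripts of the gene. At most a junction, a start or an end could set these 2086 apart from them. The median number of 31-base words found in no other transcript of the gene was 30, the number that a single new junction gives, and 625 transcripts had none. A 3′ end within 50 bases of that of a protein-coding transcript was shared by 1721 of them, or 33.7%.

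The first 5 sequences show how an added exon ends the reading frame, in transcripts that the comparisons below turn on. Each runs 5′ to 3′ from the first base of the exon to the premature stop codon, which is in capitals.
Tra2a-002, exon 2 of 9, chr6:49252965-49253108 (GRCm38, minus strand): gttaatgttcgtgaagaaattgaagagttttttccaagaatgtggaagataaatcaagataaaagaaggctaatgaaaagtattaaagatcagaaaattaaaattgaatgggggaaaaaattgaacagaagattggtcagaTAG
Rbm25-020, exon 5 of 18, chr12:83651646-83651655 (plus strand): gttgggaTGA
Hnrnpll-005, exon 7 of 14, chr17:80044976-80045022 (minus strand): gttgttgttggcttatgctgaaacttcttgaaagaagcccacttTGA
Nfat5-001, exon 4 of 16, chr8:107338295-107338341 (plus strand): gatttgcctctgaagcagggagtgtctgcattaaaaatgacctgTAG
Atp5f1-002, exon 3 of 8, chr3:105957934-105958036 (minus strand): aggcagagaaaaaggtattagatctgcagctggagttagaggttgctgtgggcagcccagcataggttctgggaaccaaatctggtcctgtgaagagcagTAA
None of the bases of these exons lies in an exon of a protein-coding transcript of the gene. The whole exons measure 306 bases in Tra2a-002, 105 in Rbm25-020, 83 in Hnrnpll-005, 62 in Nfat5-001 and 167 in Atp5f1-002.

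The next 5 differ from their gene's other transcripts by a junction, and the sequences give 15 bases on each side of it, with the last base before and the first base after the junction in capitals. The coordinates are those of the intron that is removed.
Smg1-005, chr7:118210876-118212888 (minus strand): agaatgacgaaaagGAgcgatcgatgtcgt
U2surp-009, chr9:95485666-95489699 (minus strand): gaggatttcgagaaGGaatttactcgccct
Slc2a3-003, chr6:122737299-122740387 (minus strand): aatgcacctgagacAAcgcaactctatgct
Mdm2-003, chr10:117695069-117696380 (minus strand): gggagtgatctgaaGAagagaacacagatg
Ctnnb1-011, chr9:120950724-120950991 (plus strand): gcaaggcttttcccATttgacgctgctcat
The removed intron holds 1 exon of a protein-coding transcript in Smg1-005 (156 bases), in U2surp-009 (44 bases) and in Mdm2-003 (97 bases), and 2 exons in Slc2a3-003 (161 bases), whereas that of Ctnnb1-011 holds none. The stop codon follows the junction after 93 bases in Smg1-005, 45 in U2surp-009, 81 in Slc2a3-003, 87 in Mdm2-003 and 55 in Ctnnb1-011. Only reads across this 1 junction, with 27 to 30 distinct 31-base words each, tell these 5 from the other transcripts of their genes. The rest of their estimated counts depends on how shared reads are divided, which is not given in the sources used here.

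Libraries held 5333546 to 10234690 counts, and rRNA-like and mitochondrial genes took 41.1% to 44.4% of them on average in N6, NSR and N6dT, 34.6% in NSRdT, 26.1% in dT and 2.43% in bulk. All 10 embryonic stem cell markers were detected in every group. Bulk replicate 2 stood apart: the 12 primitive endoderm markers summed to 12756 CPM (counts scaled to an equal library total) there, to 1633 and 1478 in the other two bulk libraries and to 612 to 1044 in RT-RamDA. The part of these markers in the results was not tested, and counts of calls against bulk are given below without each bulk library.

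Summed over all of them, nonsense-mediated decay transcripts made up 7834 to 8152 CPM of the N6 libraries and 9871 to 11273 of the NSR libraries. The dT libraries held 15253 to 15624 CPM, the N6dT libraries 7390 to 7913, the NSRdT libraries 10775 to 11250.0 and the bulk libraries 13616 to 13977. Without rRNA-like and mitochondrial counts in the base, the means became 14384 CPM in N6, 17853 in NSR, 20958 in dT, 13157 in N6dT, 16747 in NSRdT and 14085 in bulk. On either base dT stood highest and N6dT lowest, while bulk, second on the full base, had a mean below that of N6 on the reduced one.

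In the share of all counts of the same genes, the 50 genes with no other kind of transcript listed were kept in. As a share of these counts, the order was another. Nonsense-mediated decay transcripts held 8.08%, 8.21% and 8.12% of these counts in the 3 bulk libraries, the lowest of all groups. The share was 9.88%, 9.58% and 10.1% in N6dT and 9.88%, 10.03% and 9.89% in NSRdT, which overlapped. It was 10.4%, 10.4% and 10.6% in dT, 11.4%, 11.4% and 11.3% in N6 and 11.04%, 12.1% and 11.3% in NSR. Each of the 15 RT-RamDA libraries thus lay above each bulk library, and both mixed sets lay below their random primers alone. With counts divided by transcript length the mean share was 15.4% in N6, 15.7% in NSR, 13.1% in dT, 13.01% in N6dT, 13.2% in NSRdT and 10.04% in bulk. Retained-intron transcripts of the same genes were likewise highest with random primers alone, at 12.7% ± 0.126 (SD, n = 3) of the counts in N6. They differed in dT, where they held 7.16% ± 0.122 against 11.2% ± 0.449 in bulk. Rows of the biotype processed transcript in these genes were lowest in bulk as well. Their means were 2.86% in N6, 2.88% in NSR, 2.47% in dT, 2.55% in N6dT, 2.48% in NSRdT and 1.96% in bulk.

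**Figure D1:**
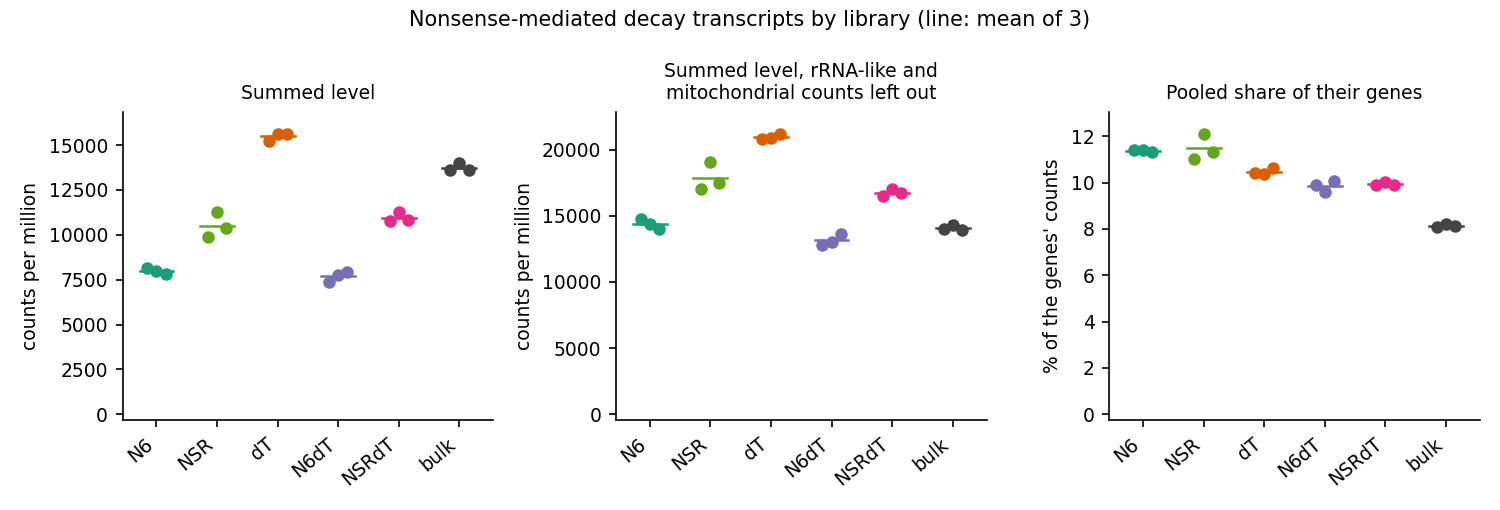
Summed level of nonsense-mediated decay transcripts in CPM on all counts (left) and without rRNA-like and mitochondrial counts (middle), and their share in percent of all counts of their genes (right); points are libraries and lines means of 3. The 3 bulk libraries hold the lowest shares, 8.08% to 8.21%, although their summed level on all counts is second to dT.

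The place of the 3′ end divided the transcripts between the primer sets. Those with a 3′ end of their own held 7.43%, 7.18% and 7.2% of their genes' counts in N6 and 7.43%, 7.75% and 7.49% in NSR, against 4.97%, 5.06% and 5.1% in dT. Those ending where a protein-coding transcript ends went the other way, with 3.23%, 3.58% and 3.4% in N6 and 2.99%, 3.58% and 3.13% in NSR against 4.88%, 4.75% and 5.001% in dT. In both classes the dT libraries did not overlap with the N6 and NSR libraries. The mixed sets lay between, with means of 5.604% and 5.703% for own ends and 3.63% and 3.66% for shared ends, and bulk had 4.41% and 3.20%. For own ends the contrast held among transcripts with more than 100 distinct words, whose counts least depend on how shared reads are divided: those with their own 3′ end held 2.47% ± 0.125 in N6 and 2.47% ± 0.156 in NSR against 1.48% ± 0.0951 in dT (SD, n = 3). For shared ends it was small in these transcripts: they held 0.912%, 0.966% and 1.034% in N6, 0.957%, 0.987% and 0.842% in NSR and 1.09998%, 1.0397% and 1.0993% in dT, with bulk at a mean of 1.061%, so dT lay barely above the random primers.

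The distance between RT-RamDA and bulk lay mostly in transcripts that are hard to tell apart. Transcripts with at most 30 distinct words held 3.46% ± 0.0849 of their genes' counts in bulk and means of 4.75% to 5.84% in the 5 RT-RamDA groups. For transcripts with more than 100 such words, bulk had 2.96% ± 0.0163, inside the range of the RT-RamDA means, which ran from 2.56% in dT to 3.44% in N6. How the authors' counting divides reads among transcripts with few or no distinct bases is not given in the sources used here, so these small classes are uncertain.

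**Figure D2:**
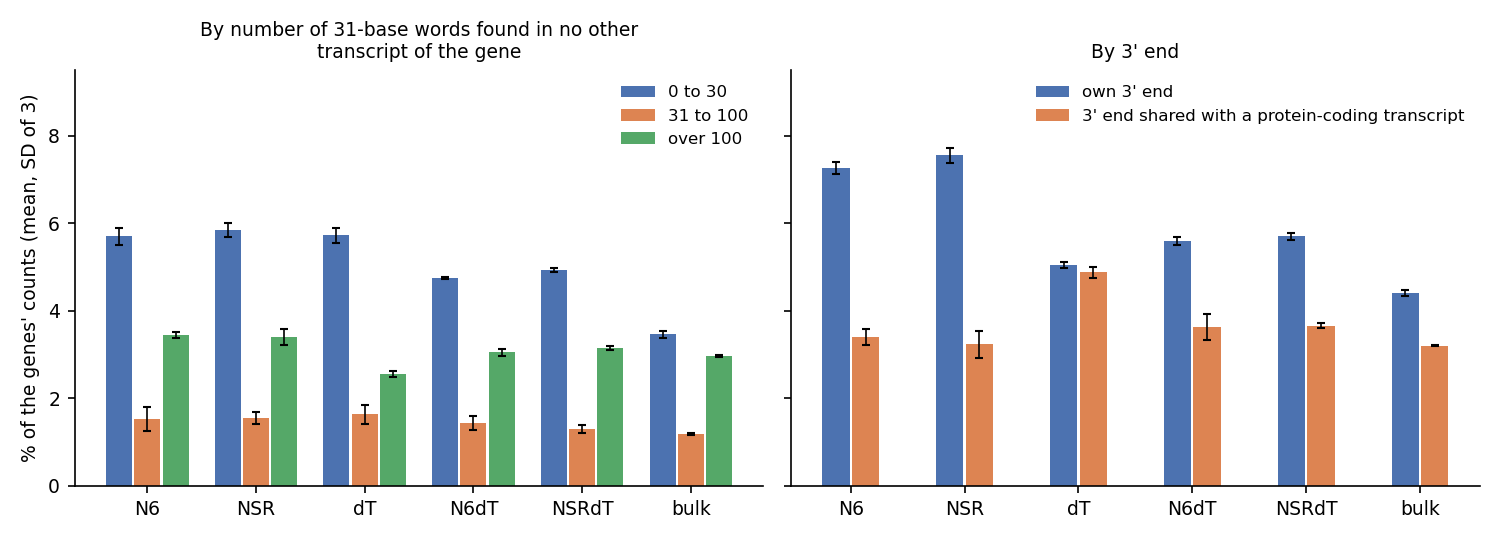
Share of their genes' counts, in percent, held by nonsense-mediated decay transcripts grouped by the number of 31-base words found in no other transcript of the gene (left) and by whether the 3′ end is shared with a protein-coding transcript (right); bars are means and lines SDs of 3 libraries. Own 3′ ends hold 7.27% in N6 and 5.04% in dT, and shared 3′ ends hold 4.88% in dT.

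Most single transcripts were rare. Of the 5344, 645 had a count of 0 in all 18 libraries, 1578 reached a mean of 1 CPM and 218 a mean of 10 CPM. With each library thinned to 5333546 counts, 2366 to 2428 of them had a count of at least 1 in bulk, 1698 to 1756 in NSR, 1605 to 1663 in N6 and 1193 to 1226 in dT. The 3 dT libraries detected the fewest and the bulk libraries the most, with no overlap to any other group.

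Shares of single genes were taken among genes of at least 20 CPM that list another kind of transcript too. The median share of a gene's counts in these transcripts was 2.78% ± 0.183 in N6, 3.32% ± 0.342 in NSR and 0 in each dT library (SD, n = 3). It was 1.79% ± 0.225 in N6dT, 1.81% ± 0.154 in NSRdT and 2.55% ± 0.143 in bulk. By this median bulk lay above dT and both mixed sets, unlike in the pooled share, where bulk was lowest. The mean percentage of genes listed at a share of 0 was 52.5% in dT, 32.4% to 38.5% in the other RT-RamDA groups and 22.9% in bulk. The opposite extreme was also more frequent in dT: 7.89% of genes had most of their counts (over 50%) in these transcripts there, against 2.43% in bulk. At 10 pg the shares of single genes varied widely. Over 1244 genes measured in all libraries, the median SD across 3 replicates was 4.60 percentage points in N6, 4.59 in NSR, 2.33 in dT, 3.22 in N6dT, 3.26 in NSRdT and 1.11 in bulk. A range above 50 points between replicates was seen in 40 to 88 genes per RT-RamDA group, most in dT, and in 1 gene in bulk. In dT 373 of the 1244 genes were at 0 in all 3 libraries, against 149 to 213 in the other RT-RamDA groups. Such genes enter the median SD as 0. Spearman correlations between replicates across these genes, which are not independent, were 0.497 to 0.547 in RT-RamDA and 0.829 to 0.847 in bulk. The mean shares of N6dT and NSRdT followed those of bulk most closely (0.673 and 0.645), and those of dT least (0.475), again across genes.

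**Figure D3:**
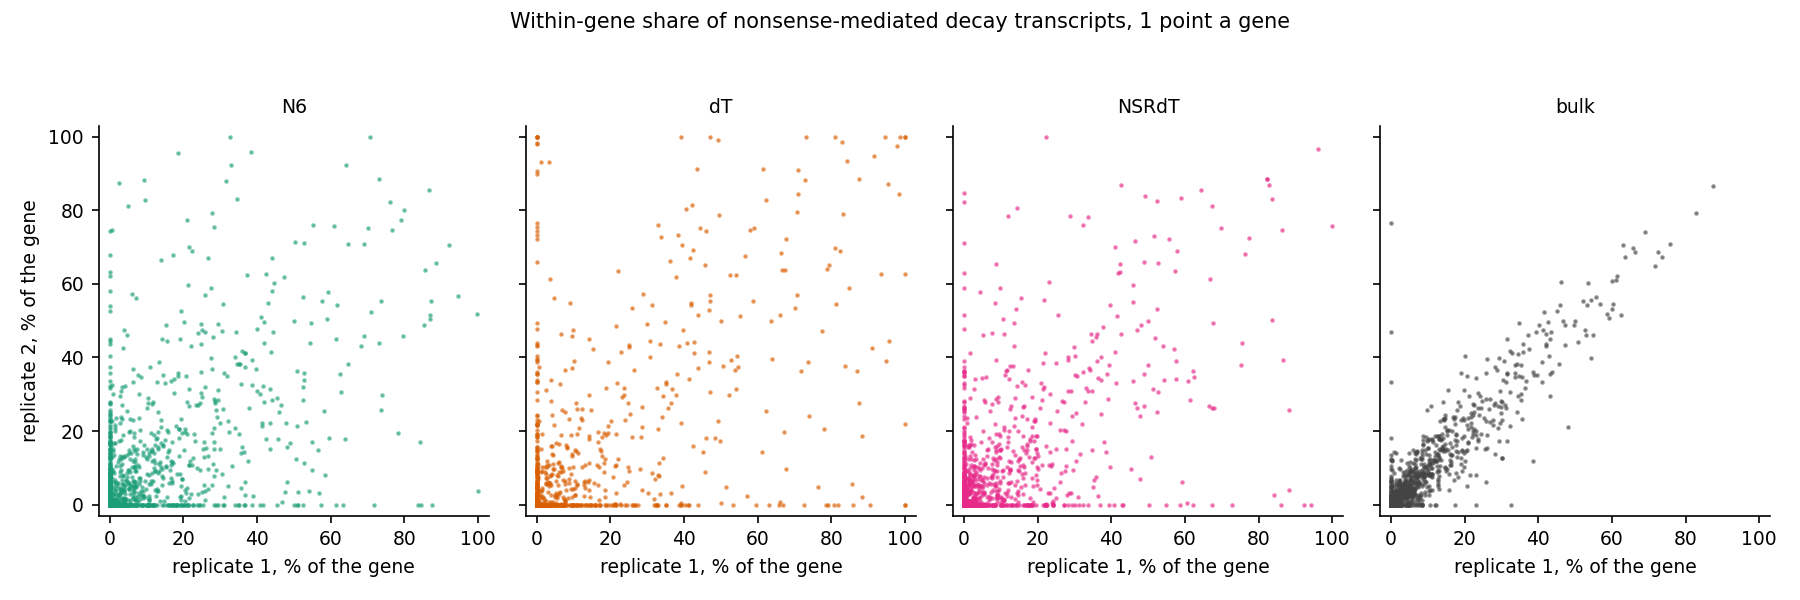
Share of each gene's counts held by its nonsense-mediated decay transcripts, in percent, in replicate 1 (x axis) against replicate 2 (y axis) of N6, dT, NSRdT and bulk; each point is 1 of 1244 genes. Points follow the diagonal in bulk and scatter to the axes in RT-RamDA, where many genes have 0 in 1 of the libraries.

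The 10 most abundant of the transcripts held 12.6% of their summed level in bulk. Gm28062-001, of a gene listed with this biotype alone and absent from GENCODE vM21, led with a mean of 328 CPM over the 18 libraries. Eef1b2-004 (chr1:63177145-63179568), from the gene of a translation elongation factor subunit, had 54.1, 58.1 and 56.8 CPM in N6, 91.8, 95.9 and 85.2 in NSR, 304, 402 and 417 in dT and 199, 179 and 183 in bulk, so dT lay above all others. Eif4a1-013 (chr11:69668482-69672423), from the gene of a helicase of the cap-binding complex, had 156, 224 and 197 CPM in N6 and 3.31, 9.03 and 15.3 in bulk, with every RT-RamDA library above bulk. Papola-004, from the gene of a poly(A) polymerase, had 324, 243 and 338 CPM in dT against 19.4, 56.7 and 12.8 in N6. Nedd4-007, from the gene of a ubiquitin ligase, had 158, 105 and 144 CPM in N6, 167, 198 and 242 in dT and 51.8, 42.5 and 58.5 in bulk. Per kilobase of transcript, the highest of the 10 was Eef1b2-004 in dT, with a mean of 542 CPM per kilobase, and in bulk, with 271. In N6, NSR, N6dT and NSRdT it was Eif4a1-013, with 236, 319, 180.5 and 306. The other five were Cbx1-003, Ddx5-002, Alg13-002, Ctnnb1-002 and Smc4-002, with means of 96.6 to 134 CPM.

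Among genes of at least 20 CPM that list another kind of transcript too, some had most counts in these transcripts on average. The highest mean share, 86.2% over the 18 libraries, was that of Cbx1, which encodes heterochromatin protein 1 beta: its single transcript of this biotype held 87.4%, 86.6% and 85.5% in bulk, 98.6%, 99.96% and 98.8% in dT and 65.7% to 89.4% in the other groups. Alg13, a subunit of an enzyme of N-glycan assembly, followed with 75.5%, and here dT was low, with 54.1%, 62.5% and 31.3% against 82.9%, 79.1% and 82.2% in bulk. Alg13-002 has no distinct 31-base word. Anapc4, of the anaphase-promoting complex, had 69.8% and Rabggtb, a subunit of the enzyme that attaches lipids to Rab proteins, had 69.3%. The others of the 10, Bend4, Mtmr12, Urb2, Zdhhc3, Pik3cb and Rell1, had mean shares of 66.9% to 68.7%, but in most of them single libraries ranged widely: from 0 to 100% in Bend4, 0 to 95.9% in Urb2, 5.42% to 98.45% in Pik3cb, 5.89% to 99.996% in Mtmr12 (1 dT library had no counts of this gene) and 17.4% to 100% in Zdhhc3. Rell1 was lower in bulk than its mean, with 34.45%, 40.9% and 37.8%.

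The first comparison set random primers against dT, which primes from the poly(A) tail. What gives the differences was not tested. Each transcript was tested with edgeR's quasi-likelihood test and called at a Benjamini-Hochberg adjusted p under 0.05 over all transcripts tested. Of the 5344, 1990 passed the filter on low counts, a filter that a transcript can pass through 1 group alone. In N6 and NSR, 81 were higher and 47 lower than in dT, beside 8.44% of all 36177 transcripts called (4.95% higher and 3.49% lower), and the median log2 difference was 0.62 against 0.50 over all. Scaled by library totals in place of TMM, 76 were higher and 118 lower. That scaling put the median log2 difference of all transcripts at -0.37 here, where TMM gives 0.50, at -1.27 for random primers against bulk (TMM -0.28) and at -1.08 for the mixed sets against bulk (TMM -0.27). In 81 of the 128 calls all libraries of 1 side had counts that rounded to 0, so the calls are mostly of presence against absence. The calls differed in their 3′ ends: 13 of the 79 higher ones with a known structure, or 16.5%, ended with a protein-coding transcript, as did 28 of the 45 lower ones, or 62.2%, and 34.4% of those tested. The median log2 difference was 1.48 over the 1256 tested with an end of their own and -0.78 over the 658 with a shared end.

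Smg1-005 (chr7:118134047-118212970), of the kinase that starts nonsense-mediated decay, had 92.3, 51.7 and 53.0 CPM in N6, 85.2, 81.6 and 88.8 in NSR and 0 in each dT library. Every random-primed library was above every dT library, and the level was at least 253-fold higher, taking 3 counts per library as the floor (edgeR adjusted p = 1.79e-07). The stop of this transcript lies 10397 bases before its last junction, and the distinct junction 12067 bases from its 3′ end. The same pattern was seen in U2surp-009, of a U2 snRNP-associated protein, with 2.02, 31 and 44.9 CPM in N6, 84.6, 53.3 and 60.7 in NSR and 0 in dT (at least 155-fold, edgeR adjusted p = 0.00205). Rbm25-020, of a splicing regulator, was at least 127-fold higher (edgeR adjusted p = 9.32e-06), Slc2a3-003, of the neuronal-type glucose transporter GLUT3, at least 105-fold (0.00527) and Huwe1-016, of a ubiquitin ligase, at least 99.2-fold (2.7e-05). Huwe1-016 is among the 28 transcripts whose stop does not lie 50 bases before the last junction. All 5 of these have a 3′ end of their own.

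The decreases described next are all of transcripts with a shared 3′ end. Flna-001 (chrX:74223461-74246398), of the actin cross-linker filamin A, had 69.6, 129.5 and 68.3 CPM in dT and counts that rounded to 0 in all 6 N6 and NSR libraries, at least 233-fold lower (edgeR adjusted p = 0.00447). Rabggtb-009 had 89.4, 71.3 and 73.7 CPM in dT and 0 in N6 and NSR, at least 204-fold lower (edgeR adjusted p = 0.000179). Epha4-002, of an ephrin receptor, had 53.3, 28.6 and 145 CPM in dT and counts that rounded to 0 in N6 and NSR, but it has no distinct 31-base word. In bulk it reached 61.9 CPM in replicate 2 and rounded to 0 in the other two. Eif4g1-005, of the scaffold of the cap-binding complex, was at least 106-fold lower and stood at 0 in N6 and NSR. Calls of these transcripts were kept without any 1 library.

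Within genes, where a change of the whole gene cancels, the share of these transcripts was tested against the other biotypes of the gene with edgeR's diffSpliceDGE. Of 1567 genes tested, the share was higher in N6 and NSR in 117 and lower in 45, or 10.3% in all, beside 5.47% of all gene and biotype sums called (4.46% higher and 1.01% lower). Without dT replicate 2 or 3 the count fell from 162 to 97 or 96, and without any other library it was 108 to 134. Rbm25 and Smg1 had the smallest adjusted p among the 10 genes named. In Smg1 these transcripts held 44.7%, 60.1% and 38.8% of its counts in N6, 28.2%, 45.3% and 43.4% in NSR and 0 in dT (edgeR adjusted p = 2e-10). In Rbm25 the share was 5.29% to 19.8% in the random-primed libraries and its counts rounded to 0 in dT (edgeR adjusted p = 2.77e-11), and in Plk4, the kinase of centriole duplication, it was 30.9%, 35.8% and 55.1% in N6, 55.8%, 60.5% and 0.585% in NSR and 0 in dT, so 1 NSR library was near dT. Pgk1 and U2surp completed the 5 largest increases. Epha4 was the extreme in the other direction, with 91.7%, 94.8% and 94.1% in dT and at most 0.00979% in N6 and NSR (edgeR adjusted p = 5.46e-06). Eif4g1 had 21.4%, 19.2% and 25.4% in dT and 0 in N6 and NSR, and Coro1c, Kntc1 and Uso1 were likewise at 0 in all 6.

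Few of the transcripts were called on adding dT to random primers. Over N6dT and NSRdT against N6 and NSR, 3 rose and 10 fell of 1990 tested, beside 1.19% of all transcripts called (0.951% higher and 0.235% lower). By library totals 6 rose and 10 fell, and with DESeq2 size factors 1 rose and 10 fell. Leaving out single libraries gave 7 to 11, and the counts under 9 came without N6 replicate 2, N6dT replicate 1 or 2, NSR replicate 2 or 3 or NSRdT replicate 2. Ctnnb1-011, of beta-catenin, had 36.7, 81.6 and 12.5 CPM in N6, 22.8, 81.0 and 52.1 in NSR and 0 in all 6 mixed libraries and in bulk, at least 118-fold lower (edgeR adjusted p = 0.000918). Actr3-011, of the Arp2/3 complex, was at least 36.2-fold lower, Plk4-009 at least 35.8-fold and Eif2a-002, of an initiation factor, at least 36.7-fold, with 0 in all 6 mixed libraries and in all 3 dT libraries. Among the increases, Ndufa10-004, of respiratory complex I, had a mean of 39.5 against 16.1 CPM (log2 difference 1.09, SE 0.25, edgeR adjusted p = 0.046), a call lost without any 1 of the 12 libraries. The calls of Ctnnb1-011, Actr3-011, Plk4-009 and Eif2a-002 were kept in each case, and that of Tsr1-006 was lost without any 1 of 11 libraries.

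At the level of shares, 6 genes rose and 18 fell of 1567 on adding dT, beside 0.507% of all sums called (0.208% higher and 0.3% lower), and 14 in all without N6dT replicate 1. Ccna2, the cyclin of S phase and mitotic entry, had 30.5%, 47.2% and 36.6% of its counts in these transcripts in N6, 28.4%, 43.1% and 36.2% in NSR, 15.6%, 16.2% and 6.72% in N6dT and under 0.5% in each NSRdT library (log2 difference -4.52, SE 0.77, edgeR adjusted p = 0.000319). Atp5f1, a subunit of ATP synthase, went the other way. It had 13.9%, 10.2% and 0 in N6, 9.97%, 0 and 0 in NSR, 28.5%, 30.8% and 27.8% in N6dT, 37.6%, 48.3% and 47.7% in NSRdT and 54.4%, 55.6% and 55.8% in bulk. The 6 libraries with dT lay above the 6 without, but the call (edgeR adjusted p = 0.0217) was lost without any 1 of 8 libraries.

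No transcript of this kind was called between NSR and N6 primers, and no share was. Of 1990 transcripts and 1567 shares tested with edgeR, 0 were called, beside 0.058% of all transcripts (0.0221% higher and 0.0359% lower) and 0.0% of all sums, while 155 transcripts and 148 shares had an unadjusted p under 0.05. DESeq2's Wald test called 32 transcripts, and the fit by library totals 1. The interaction of NSR with added dT called 0 as well, with 147 transcripts and 152 shares at an unadjusted p under 0.05.

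Of the comparisons with bulk, that of dT had the most calls. Of 1377 tested, 88 transcripts were higher and 319 lower in dT, beside 27.3% of all transcripts called (5.13% higher and 22.2% lower), and in 326 of these 407 calls 1 side had counts that rounded to 0. The count moved when any 1 library was left out. It was 634, 630 or 666 without dT replicate 1, 2 or 3. Without bulk replicate 1, 2 or 3 it was 203, 170 or 180, of which 154, 130 or 138 were lower. The filter on low counts was run again each time, and 1667 to 1740 transcripts were then tested. Nfat5-001 (chr8:107293470-107379517), of the transcription factor of osmotic stress, had 42.9, 62.0 and 87.1 CPM in bulk and 0 in dT, at least 215-fold lower (edgeR adjusted p = 0.00763). U2surp-009 was at least 193-fold lower, Rev3l-002, of the catalytic subunit of DNA polymerase zeta, at least 144-fold and Huwe1-016 at least 127-fold. Mdm2-003, of the ubiquitin ligase of p53, was opposite, with 98.6, 141 and 123.2 CPM in dT and at most 0.0945 in each bulk library (log2 difference 11.49, SE 0.79, edgeR adjusted p = 0.00242). Bdp1-002, of an RNA polymerase III initiation factor, stood at 51.9, 31.3 and 56.2 CPM in dT and at 0 in bulk, at least 155-fold higher. Pisd-002, Trip12-014 and Fam188a-005 were at least 101-fold higher.

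Shares within genes were higher in dT than in bulk in 49 of 1192 genes and lower in 165, beside 10.1% of all sums called (1.14% higher and 8.99% lower). The count of 214 became 335 to 361 without any 1 dT library and 108, 89 or 92 without bulk replicate 1, 2 or 3. In Nfat5 these transcripts held 34.8%, 49.5% and 60.4% in bulk and 0 in dT (edgeR adjusted p = 2.02e-05). In Smg6, the endonuclease that cleaves RNAs in this decay pathway, they held 57.9%, 74.6% and 64.5% in dT and 0 in every bulk, N6, N6dT and NSRdT library (dT against bulk, edgeR adjusted p = 0.00306). In dT, these transcripts thus held none of the counts of Smg1 and most of those of Smg6. These are shares within the gene, and as whole genes both were lower in dT than in N6 and NSR, as given below. The dT libraries enter both the comparison with bulk and the one with random primers, so the results for dT share those libraries.

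Between N6 and NSR and bulk fewer transcripts were called. Of 1625 transcripts, 47 were higher and 52 lower than in bulk, beside 6.39% of all called (2.06% higher and 4.33% lower), or 54 and 147 by library totals. The count of 99 was 55 to 63 without any 1 N6 or NSR library. Without bulk replicate 1, 2 or 3 the higher calls were 26, 29 or 27 and the lower calls 3, 2 or 2, so most of the 52 lower calls need all 3 bulk libraries, whereas DESeq2's Wald test called 179 higher and 54 lower. With all libraries, transcripts called higher had a shared 3′ end in 7 of 47 cases (14.9%) and those called lower in 37 of 50 with a known structure (74%), beside 33.55% of those tested. Ctnnb1-011 was at least 159.6-fold higher (edgeR adjusted p = 0.00226). Slc2a3-003 had 26.8, 18.9 and 13.5 CPM in N6, 36.8, 44.6 and 47.8 in NSR, and was at 0 in bulk and dT (at least 105-fold, edgeR adjusted p = 7.47e-05). Taf1-005, of the largest subunit of TFIID, had 31.9, 30.0 and 32.1 CPM in bulk and rounded to 0 in N6 and NSR, at least 81.9-fold lower. Mdh2-002, of mitochondrial malate dehydrogenase, had 22.8, 24.8 and 22.0 CPM in bulk and 0 in all 6. The call of Mdh2-002 was lost without any 1 bulk library. For shares the direction was mostly up, with 76 genes higher and 32 lower of 1360, beside 2.44% of all sums called (1.6% higher and 0.843% lower), and 51, 53 or 56 in all without bulk replicate 1, 2 or 3.

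Between the mixed sets and bulk the count was lower still. Of 1570 transcripts tested, 28 were higher and 41 lower in N6dT and NSRdT than in bulk, beside 3.95% of all called (1.35% higher and 2.61% lower), or 27 and 132 by library totals. The count of 69 was 24 to 28 without any 1 mixed library. Without bulk replicate 1, 2 or 3 the higher calls were 11, 10 or 10 and no transcript was called lower, whereas DESeq2's Wald test called 114 higher and 53 lower. Ppp1cc-008, of a catalytic subunit of protein phosphatase 1, had 28.7, 28.1 and 20.6 CPM in N6dT, 106, 103.4 and 87.2 in NSRdT and 0, 0 and 0.917 in bulk (log2 difference 8.12, SE 1.05, edgeR adjusted p = 0.00322), and has no distinct 31-base word. Qars-020, of glutaminyl-tRNA synthetase, fell by 2.34 on the log2 scale (SE 0.39, edgeR adjusted p = 0.0137), a call lost without any 1 bulk library. Within genes, 34 shares were higher and 19 lower of 1298, beside 1.22% of all sums called (0.752% higher and 0.471% lower), and 37, 34 or 31 in all without bulk replicate 1, 2 or 3. Eif4a1 had the smallest adjusted p among those named: its share was 34.4%, 34.2% and 38.9% in N6dT, 34.6%, 44.5% and 38.9% in NSRdT and 0.282%, 0.908% and 1.39% in bulk (log2 difference 5.47, SE 0.35, edgeR adjusted p = 1.48e-12). In N6 the share was 47.5%, 61.7% and 61.5%, and in dT 18.3%, 11.4% and 10.3%. Ywhae, which encodes 14-3-3 epsilon, had a mean of 14.7% ± 2.86 in the mixed sets (SD, n = 6) against 0.0999% ± 0.173 in bulk (edgeR adjusted p = 5.43e-07). Calu, of a calcium-binding protein of the secretory pathway, was at 0 in all 6 mixed libraries and at 10.3%, 8.32% and 11.7% in bulk.

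**Figure D4:**
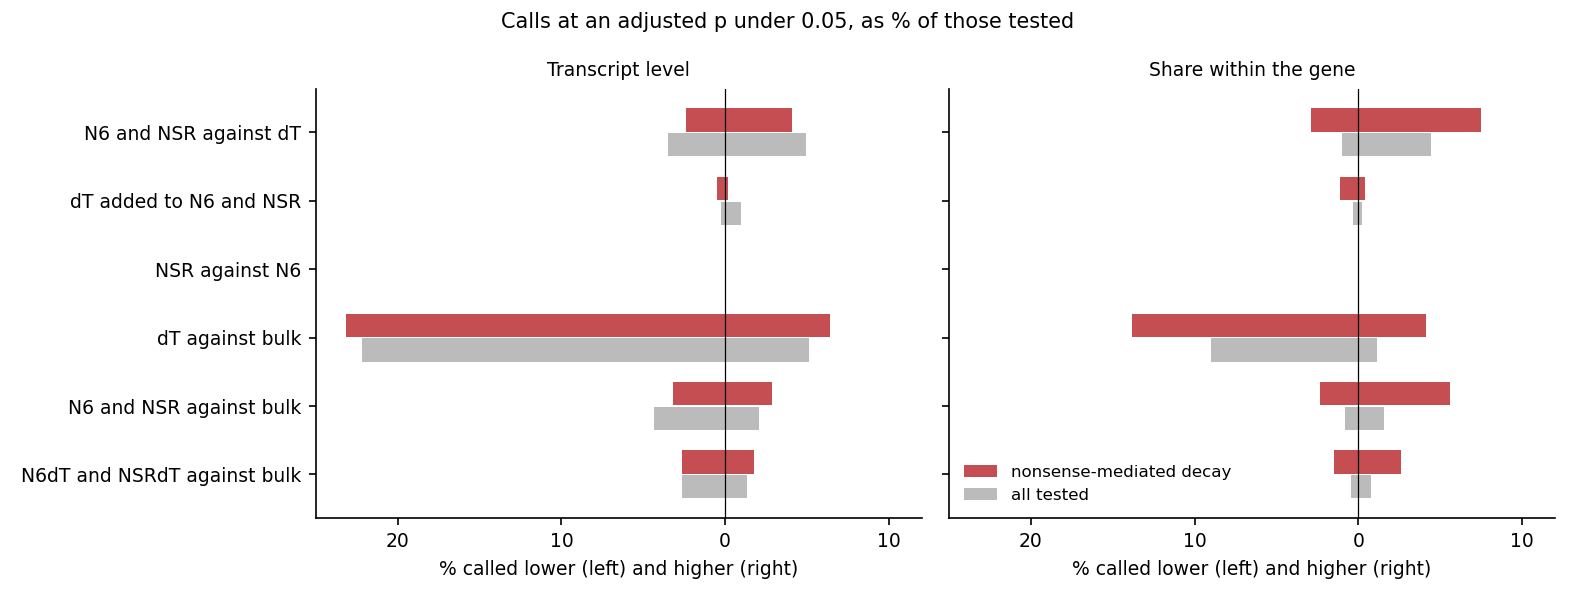
Percentage of tested features called lower (left of 0) and higher (right of 0) in each comparison, for single transcripts (left panel) and for biotype shares within genes (right panel); red bars are nonsense-mediated decay transcripts and grey bars all features tested. For shares of N6 and NSR against dT, 10.3% of nonsense-mediated decay sums are called against 5.47% of all.

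Splicing regulators were described from a list of 59 RNA-binding and splicing genes, of which 35 hold transcripts of this biotype (86 rows). Between random primers and dT, shares of 5 of these 35 genes were higher and 1 was lower, beside 10.3% of all nonsense-mediated decay sums and 5.47% of all sums called. Tra2a, whose poison exon opens the sequences above, had 44.1%, 28.5% and 48.0% of its counts in Tra2a-002 in N6, 49.1%, 46.9% and 65.5% in NSR, 7.90%, 16.1% and 1.46% in dT and 50.8%, 44.1% and 46.4% in bulk. The dT libraries lay below all others (log2 difference 2.42 from N6 and NSR, SE 0.58, edgeR adjusted p = 0.00776). They also differed from bulk (log2 difference -2.42, SE 0.72, edgeR adjusted p = 0.0433), a call lost without dT replicate 1 or any 1 bulk library. Per transcript, Tra2a-002 had 57.1, 22.5 and 55.9 CPM in N6, 12.8, 35.95 and 2.89 in dT and 145, 111 and 132 in bulk.

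Ptbp1, the splicing repressor that controls its own level through skipping of an exon, had shares of 29.5%, 28.5% and 21.6% in N6, 26.1%, 39.0% and 23.6% in NSR, 0, 6.75% and 0 in dT and 3.597%, 2.43% and 0.451% in bulk. N6 and NSR were above dT (log2 difference 3.84, SE 0.95, edgeR adjusted p = 0.00903, lost without dT replicate 3) and above bulk (3.68, adjusted p = 0.000254), and the mixed sets were above bulk as well (3.21, SE 0.53, adjusted p = 0.000335). Hnrnpll, an RNA-binding repressor of exons, had 53.4%, 22.6% and 0 in N6, 24.7%, 30.0% and 71.95% in NSR, 0 in each dT library and 21.0%, 29.6% and 17.2% in bulk. Hnrnpll-005 is the transcript with the added exon shown above. U2af2, which binds the polypyrimidine tract at 3′ splice sites, was at 0 in all 9 libraries that contain dT primers, at 0 to 25.8% in N6 and NSR and at 5.18%, 3.70% and 3.79% in bulk. Sf3b1, of the U2 snRNP, passed the test at a low share, with a mean of 1.24% in N6 and NSR and 0 in dT, and did not without any 1 dT library. Clk1, a kinase of SR proteins, was the exception, with 35.0%, 33.3% and 50.7% in dT against 0 to 8.73% in N6 and NSR (log2 difference -3.08, SE 0.97, edgeR adjusted p = 0.0475) and 10.4%, 2.52% and 11.2% in bulk. The call of Clk1 against N6 and NSR was lost without any 1 dT library, N6 replicate 1 or 3 or NSR replicate 2 or 3.

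In the other comparisons of shares, 2 of 35 genes fell on adding dT (Srrm1 and U2af2), beside 1.53% of all nonsense-mediated decay sums called, and 0 were called between NSR and N6. The call of Srrm1 was lost without NSR replicate 3 or any 1 mixed library. Between dT and bulk 1 of 31 was higher (Clk1) and 4 were lower (Tra2a, Hnrnpll, U2af2 and Clk4), beside 18% of all nonsense-mediated decay sums. Without bulk replicate 1, 2 or 3, Clk1 was no longer called and 2, 2 or 3 genes were lower. The calls of Clk4 and Hnrnpll were kept without any 1 library, and those of U2af2 and Clk1 were also lost without dT replicate 3. N6 and NSR had 3 of 34 above bulk (Ptbp1, Hnrnpl and Pabpn1), beside 7.94% of these sums, and the mixed sets the same 3 of 33 above it, with U2af2 below, beside 4.08%. Without any 1 bulk library 2 were higher in both, with U2af2 still below bulk in the mixed sets. Of these, Hnrnpl was not called for N6 and NSR, a call also lost without N6 replicate 2 or NSR replicate 2 or 3, and Pabpn1 was not called for the mixed sets. Hnrnpl had 1.92%, 2.14% and 2.28% in bulk against 13.8%, 21.6% and 15.8% in N6dT and 7.66%, 16.97% and 19.8% in NSRdT (log2 difference 2.92, SE 0.41, edgeR adjusted p = 0.00011). Tardbp, which encodes TDP-43, and Hnrnpd had shares between 20.1% and 43.7% in every library, and neither was called in any of the comparisons. Inside Tardbp, Tardbp-005, which has no distinct 31-base word, had 124, 149 and 138 CPM in dT, 51.7, 31.3 and 37.8 in bulk and 27.0 to 40.9 in N6 and NSR (random primers against dT, log2 difference -1.13, SE 0.26, edgeR adjusted p = 0.0131). Counted by transcript, 6 of the 60 tested were higher and 2 lower in N6 and NSR than in dT, beside 8.44% of all transcripts called. In dT 2 of 47 were higher and 8 lower than in bulk, beside 27.3% of all, and without bulk replicate 1, 2 or 3 the lower calls were 2, 1 or 3. The call of Tardbp-005 against N6 and NSR was lost without dT replicate 2.

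**Figure D5:**
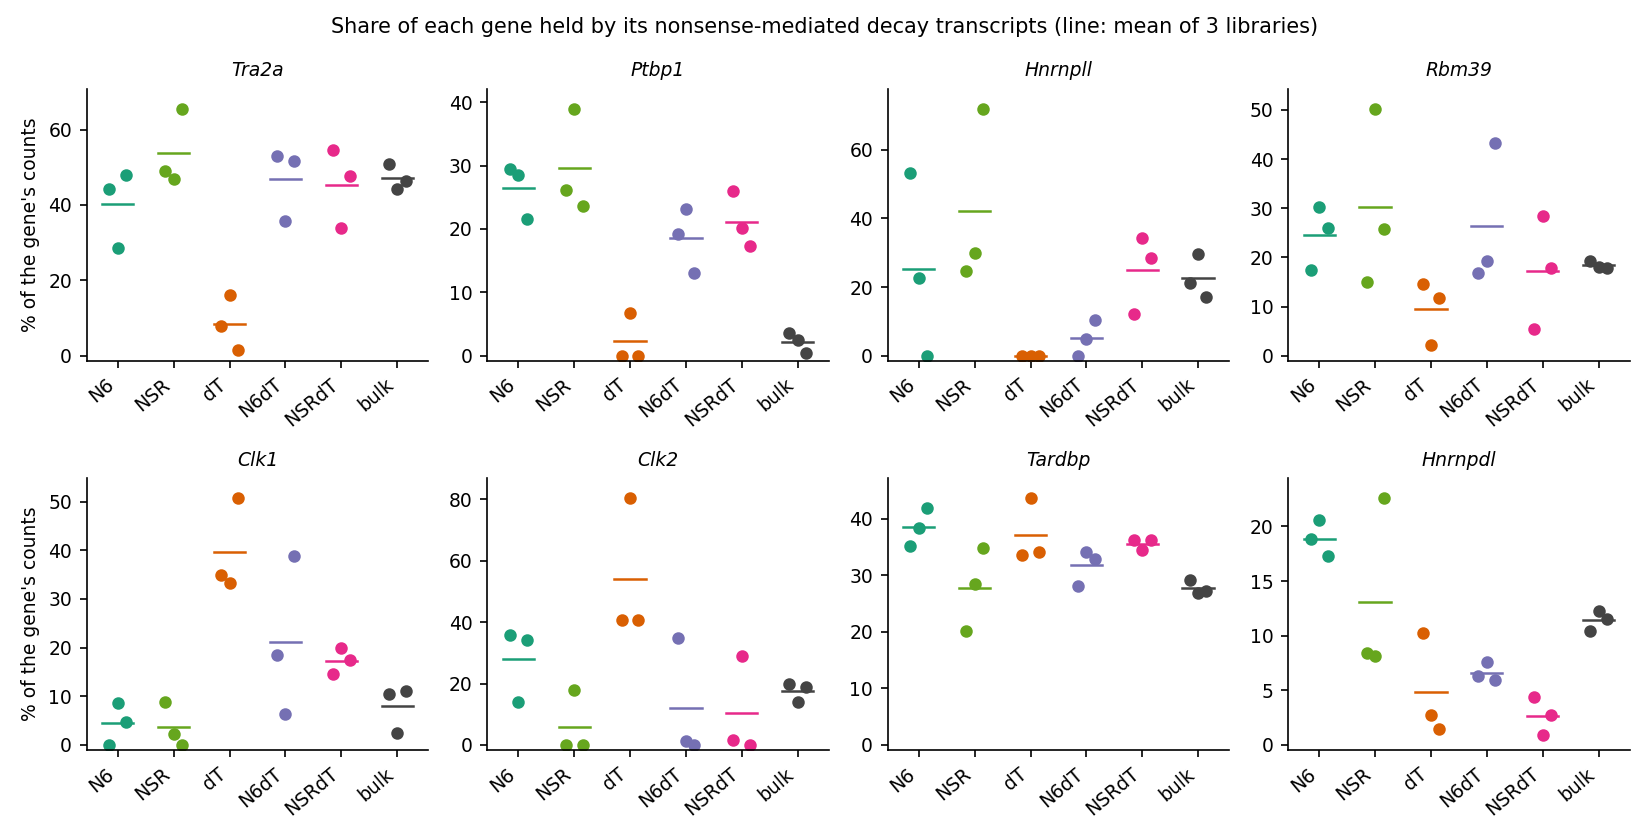
Share of each gene's counts held by its nonsense-mediated decay transcripts, in percent, for 8 splicing regulators; points are libraries and lines means of 3, and the y axes differ. In Tra2a, Ptbp1 and Hnrnpll the dT libraries are low (0 to 16.1%), and in Clk1 they are high (33.3% to 50.7%).

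Genes of the decay machinery and classical targets of the pathway were counted at the level of whole genes, from lists of 25 and 20 genes. Of 24 machinery genes tested, 5 were higher and 5 lower in N6 and NSR than in dT, beside 9.53% and 7.54% of all genes. Those higher included Smg1 (log2 difference 1.46), Smg6 (1.89), Upf1 (0.81) and the release factor gene Etf1 (0.62), of which Upf1 and Etf1 had the opposite sign by library totals (-0.12 and -0.31). Those lower included the exon junction complex genes Magoh (-1.31), Eif4a3 (-1.02) and Rbm8a (-0.90), with Rnps1 (-0.87) and Pym1 (-1.002) (edgeR adjusted p from 0.002 to 0.0469 over those named). Of 16 targets tested, 4 were lower: Upp1 (-1.17), Atf4 (-0.94) and the snoRNA host genes Gas5 (-0.90) and Snhg1 (-0.87). The call of Upf1 was lost without any 1 library other than NSR replicate 3, that of Pym1 without any 1 other than dT replicate 2, that of Smg6 without dT replicate 2 or 3 and that of Etf1 without dT replicate 1 or 3. Against bulk, dT had 3 machinery genes higher and 2 lower and 2 targets higher, beside 6.9% of all genes higher and 11.9% lower. Without bulk replicate 1 or 3 no machinery gene was called, without bulk replicate 2 there was 1 in each direction, and 1 target was higher without any 1 of them. N6 and NSR had 1 machinery gene and 3 targets lower than bulk, beside 3.46% of all genes, and 0 machinery genes and 1 target without any 1 bulk library. The mixed sets had 0 of either, beside 2.36% of all genes higher and 2.03% lower, with 5 machinery genes and 2 targets at an unadjusted p under 0.05. On adding dT, Gas5 rose (0.74) and Upf1 fell (-0.86), beside 1.8% of all genes higher and 0.376% lower, and the call of Upf1 was lost by library totals and without any 1 library other than NSR replicate 3. Between NSR and N6 edgeR called 0 of either list, with 3 machinery genes and 1 target at an unadjusted p under 0.05. Scaling by library totals moved the median gene by -0.80 between random primers and dT, where TMM gives 0.13, and no machinery gene was then higher and 10 were lower, with 8 targets lower, beside 27.6% of all genes lower. By the same scaling 19 of 24 machinery genes and 13 of 16 targets were lower than bulk in N6 and NSR, beside 50.1% of all genes, and 19 and 12 in the mixed sets, beside 40.2%. It also called 4 targets higher on adding dT, and 2 machinery genes and 3 targets higher in NSR than in N6, beside 3.27% and 3.35% of all genes.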

How the data were processed

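The values are estimated counts per transcript, which the authors deposited without normalization for 18 libraries, 3 in each of 6 groups; per the file headers the rows are GENCODE transcripts and 92 ERCC sequences, the latter kept out of all totals and tests. The submitters' processing notes list mm10 and bcl2fastq 2.16.0.10. Aligner, quantifier, annotation release and strand setting: not given in the sources used here. Members and gene lists were chosen with earlier results of these data known. Counts were rounded and tested in edgeR 4.0.16 (R 4.3.3) with TMM, filterByExpr and the quasi-likelihood F test, two-sided, with Benjamini-Hochberg adjustment over all transcripts; shares were tested with diffSpliceDGE on sums per gene and biotype class. Contrasts among primer sets came from a single model of all 15 RT-RamDA libraries, and each comparison with bulk used its own libraries. Both tests were also run on simulated counts with a smaller spread between libraries than the real ones. That run cannot show how the tests do on these data. SEs are the log2 difference over the root of F. GENCODE vM21 gave structures and sequences, matched by transcript identifier, and Python 3.11.15 did the rest. Totals of 5333546 to 10234690 counts limit low transcripts, and a group at 0 was given a floor of 3 counts per library.

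Named were the 10 most abundant transcripts and the 35 splicing regulators. The 10 genes of highest share were taken at 20 CPM or more, among genes that list another kind of transcript too. In each comparison up to 5 called members in each direction were named, by the largest differences. These had a mean of at least 5 CPM and no overlap of the 2 sides, without Gm and Rik symbols. Replicate numbers were not treated as pairs, since deviations of equally numbered libraries correlated between -0.0339 and 0.0361. Alternatives were library totals, DESeq2 1.42.0, no filter, a replicate block, counting Rpl, Rps and Srsf genes in, and leaving out each library. Some results that the rule allows are not reported here.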

Additional observations from a re-analysis of the deposited data

How the results depend on the processing

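For transcripts and shares named by the size of their change, no direction was reversed under any alternative run: of 777 refits with 1 library left out 648 kept the call, and of 402 under other settings 372 did. The other called splicing regulators and the called genes of the machinery and target lists were refitted too, a check chosen after seeing the data. Of 597 such refits with 1 library left out 388 kept the call and 0 were reversed, and of 233 under other settings 182 did and 2 were reversed: by library totals Upf1 was at -0.12 and Etf1 at -0.31 between random primers and dT. Counts of called transcripts moved more. By library totals they became 194 for random primers against dT, 1 for NSR against N6, 201 for random primers against bulk and 159 for the mixed sets against bulk. Without a filter on low counts the same comparisons gave 284, 26, 42 and 19, and adding dT gave 97. DESeq2's Wald test gave 419, 32, 233 and 167, and 110 for adding dT. With 1 library left out, calls of transcripts ranged from 86 to 102 (random primers against dT), 7 to 11 (dT added), 0 to 1 (NSR against N6, where NSR replicate 1 or NSRdT replicate 1 or 3 gave the 1), 170 to 666 (dT against bulk), 29 to 63 (random primers against bulk) and 10 to 28 (mixed sets against bulk). Calls of shares ranged from 96 to 134, 14 to 24, 0 to 1, 89 to 361, 51 to 129 and 31 to 78 in the same order. The cause was not tested. As a replicate block, a term for the replicate number left 6 transcripts called between dT and bulk, 27 between random primers and bulk and 11 between the mixed sets and bulk, and 29 shares between dT and bulk; 3 of 18 libraries correlated best with their own number, so the numbers do not pair the libraries.

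The summed level without rRNA-like and mitochondrial counts was 14384 CPM in N6, 17853 in NSR, 20958 in dT, 13157 in N6dT, 16747 in NSRdT and 14085 in bulk. With Rpl, Rps and Srsf genes it was 16609 in dT, 7983 in N6dT, 11373 in NSRdT and 14659 in bulk, and the share was 11.2% in N6 and 8.25% in bulk. Divided by length the share was 15.4%, 15.7%, 13.1%, 13.01%, 13.2% and 10.04% in N6, NSR, dT, N6dT, NSRdT and bulk, and as a median over genes 2.78%, 3.32%, 0, 1.79%, 1.81% and 2.55%. Leaving out 1 library at a time, the summed levels ranged from 7915 to 8074, 10135 to 10836, 15423 to 15609, 7567 to 7829, 10809 to 11046 and 13627 to 13807 CPM, and the shares from 11.37% to 11.41%, 11.2% to 11.7%, 10.39% to 10.51%, 9.73% to 9.98%, 9.89% to 9.96% and 8.10% to 8.17%. At 10 pg, transcripts near the floor of 3 counts cannot be told from absent ones.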
